A study of Mus musculus with 41 samples.

Results

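The inflammatory chemokine receptors described here are Ccr2, Ccr4, Ccr6, Ccr8, Cxcr3, Cxcr4, Cxcr6 and Cx3cr1, taken by gene symbol from a table of raw RNA-seq counts. All 8 symbols were found among the 19434 genes of the table. The counts come from mouse regulatory T cells (Treg cells), and from cells that had stopped expressing Foxp3, with or without the gene Uhrf1. In the chimera experiment, 4 control and 4 knockout libraries were made from CD25hi Foxp3-YFP+ Treg cells of 8-week-old females. Controls were Uhrf1+/+Foxp3YFP-Cre/YFP-Cre. The chimeric knockouts were Uhrf1fl/flFoxp3+/YFP-Cre, in which Cre sits on 1 X chromosome, so that Cre-positive Treg cells lacking Uhrf1 shared the animal with Cre-negative Treg cells that kept it. In the pulse-chase experiment, all mice carried Foxp3GFP-CreERT2 and Rosa26SorCAG-tdTomato, with Uhrf1+/+ in controls (5 libraries per population) and Uhrf1fl/fl in the fl/fl mice, named iUhrf1fl/fl in the labels (6 libraries per population). These 8-week-old mice had tamoxifen chow for 2 weeks and then standard chow for 4 weeks, so controls received tamoxifen and carried the same Cre as the fl/fl mice. In both experiments Cre was driven from the Foxp3 locus. The 3 sorted populations were labeled Treg cells (GFP+tdTomato+), which expressed Foxp3 during and after tamoxifen, ex-Foxp3 cells (GFP-tdTomato+), which had lost Foxp3, and post-tamoxifen Treg cells (GFP+tdTomato-), which carried no label and so no record of Cre activity.

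Chemokine receptors are G protein-coupled receptors that steer cells along gradients of secreted chemokines, through Gi-coupled signalling that arrestins and RGS proteins switch off. In T cells, naive cells use Ccr7 to reach lymph nodes, whereas activated and memory cells, effector Treg cells included, gain receptors that take them into tissue. Ccr2 is the receptor for Ccl2 and is best known on inflammatory monocytes. Cx3cr1 binds fractalkine and marks monocytes and cytotoxic lymphocytes, and Cxcr6, the receptor for Cxcl16, is found on tissue T cells. Ccr4 and Ccr8 are receptors of skin-homing and tissue Treg cells, Ccr6 binds Ccl20 and accompanies the Th17 programme, Cxcr3 binds Cxcl9 and Cxcl10 and accompanies the Th1 programme, and Cxcr4 binds Cxcl12 and is carried by most leukocytes. Uhrf1 copies DNA methylation at CpG sites onto the new strand after replication.

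The members lie in the mm10 (GRCm38) table at 4 chromosomes, and 5 of the 8 are on chromosome 9. Cx3cr1 (chr9:119901616-120068283, minus strand) and Ccr8 (chr9:120092133-120094906, plus strand) are separated by 23850 bp. Cxcr6 (chr9:123806477-123811754, plus strand) and Ccr2 (chr9:124101950-124113557, plus strand) are 290196 bp apart. Ccr4 (chr9:114490316-114496544, minus strand) lies 5405072 bp before Cx3cr1. Ccr6 is at chr17:8236043-8257127 (plus strand), Cxcr3 at chrX:101731535-101734269 (minus strand) and Cxcr4 at chr1:128588199-128592293 (minus strand). The counts refer to whole genes. In the reference annotation Cxcr6 lies inside Fyco1, which is on the other strand, and the Cx3cr1 interval of the table overlaps 8 other genes, Csrnp1, Gorasp1 and Xirp1 among them on the same strand, so reads in these intervals are less certain than those of the other 6 members, which overlap no other gene. The identifiers beside Cxcr6 and Cx3cr1 in the table belong to Fyco1 and Wdr48, while the coordinates and strands are those of Cxcr6 and Cx3cr1, and the symbol and coordinates were followed here.

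Because Uhrf1 acts on CpG sites, the promoters of 3 members are shown for their CpG content: Ccr2 and Cxcr6, which varied together across libraries (below), and Cxcr4, the member with the most CpGs. Each is the RefSeq window of 300 bases on GRCm38.p6, from 250 before the annotated start to 50 after it, written 5′ to 3′ with each CG in capitals. The windows are chr9:124101933-124102232 (plus strand) for Ccr2, chr9:123806227-123806526 (plus strand) for Cxcr6 and chr1:128592250-128592549 (minus strand) for Cxcr4.
Ccr2: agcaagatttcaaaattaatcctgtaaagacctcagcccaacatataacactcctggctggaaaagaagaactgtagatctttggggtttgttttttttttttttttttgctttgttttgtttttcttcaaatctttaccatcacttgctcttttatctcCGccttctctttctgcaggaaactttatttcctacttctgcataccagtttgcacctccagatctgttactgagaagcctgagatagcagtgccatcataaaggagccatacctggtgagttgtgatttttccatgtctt
Cxcr6: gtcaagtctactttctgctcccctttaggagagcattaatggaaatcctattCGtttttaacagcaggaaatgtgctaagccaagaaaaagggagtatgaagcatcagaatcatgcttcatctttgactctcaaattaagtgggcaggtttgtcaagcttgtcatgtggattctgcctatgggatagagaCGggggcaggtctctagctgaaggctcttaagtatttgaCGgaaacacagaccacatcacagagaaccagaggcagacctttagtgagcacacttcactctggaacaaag
Cxcr4: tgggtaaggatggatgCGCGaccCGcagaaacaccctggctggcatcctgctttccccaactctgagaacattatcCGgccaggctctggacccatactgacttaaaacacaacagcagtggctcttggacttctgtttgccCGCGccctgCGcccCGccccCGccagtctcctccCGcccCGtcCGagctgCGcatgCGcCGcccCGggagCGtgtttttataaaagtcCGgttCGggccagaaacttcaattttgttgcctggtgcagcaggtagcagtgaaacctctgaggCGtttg
The Ccr2 window held 1 CG, the Cxcr6 window 3 and the Cxcr4 window 20. Over all 32851 promoters of the RefSeq table the median was 7 CGs, with quartiles at 3 and 20, and 5.43% of promoters held fewer than Ccr2 while 73.5% held fewer than Cxcr4. Of the other members, Ccr8 had 2, Ccr4 3, Cxcr3 4 and Cx3cr1 5, and Ccr6 had 2 in the window of its first start and 10 in that of a second. A search on both strands for TGTTTAC (forkhead), TGTGGT (RUNX) and TCACAC (T-box), none of which contains another, found the first in 0, the second in 4 and the third in 1 of the 9 member windows. Among all promoters these letters occurred in 3.65%, 16.8% and 14.5%. No methylation data were used here, and such matches describe the sequence only.

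The 41 libraries held 781437 to 5709702 counts. Uhrf1 itself was at 22.3 to 32.5 CPM (counts scaled to library size) in the chimera controls, at 8.66 to 12.0 in 3 knockouts and at 22.3 in the library labelled knockout 4. In the pulse-chase the genotypes overlapped (labeled cells, 11.3 to 104 CPM in controls and 10.4 to 88.5 in fl/fl). These are counts over the whole gene, and the part removed by Cre is not given in the sources used here, so they do not test deletion. Foxp3 was at 317 to 508 CPM in labeled cells and 13.3 to 151 in ex-Foxp3 cells. The post-tamoxifen libraries of control 2 and fl/fl 3 were at 123 and 128 CPM, in the ex-Foxp3 range, against 287 to 537 in the other post-tamoxifen libraries. Y-linked genes summed to 430.5 CPM in the library labelled chimera control 1 although the label says female, and to 318 to 455 CPM in all populations of pulse-chase controls 2 and 3, against at most 2.33 elsewhere. Chimera controls 3 and 4 held more B cell marker counts (78.3 and 73.8 CPM, against at most 14.2 in the other chimera libraries) and more G2/M counts (582 and 511 CPM, against at most 291). In the pulse-chase, the libraries numbered 1 to 3 held 202 to 5412 CPM of G2/M genes and those numbered 4 and above 190 to 569. Myeloid markers summed to 56.1 to 750 CPM in post-tamoxifen libraries and 33.5 to 77.8 in labeled and ex-Foxp3 libraries. The design text calls the libraries of a group biological replicates. The labels name no batch and do not say whether libraries of the same number in different populations came from the same mouse.

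Levels per kilobase of exon set the receptors in an order. The counting settings are not given, so this order holds only if reads were counted over exons. Ccr6, for example, spans 21085 bp with 2320 bp of exon. In control labeled Treg cells the mean was 34.8 ± 4.27 CPM per kb for Cxcr3, 32.3 ± 13.5 for Cxcr4 and 31.8 ± 4.56 for Ccr4 (SD, n = 5), and these 3 did not separate from each other by more than their SD. Ccr2 followed at 19.3 ± 10.2 and Cxcr6 at 16.3 ± 4.35, within 1 SD of each other. Ccr8 was at 9.50 ± 4.58 and Ccr6 at 9.16 ± 2.47, and Cx3cr1 had no count in any of the 5 libraries. In the chimera controls Cxcr4 led at 23.1 ± 2.90 CPM per kb (SD, n = 4), followed by Ccr8 at 15.6 ± 7.45, Cxcr3 at 15.3 ± 3.97, Ccr6 at 12.7 ± 2.19 and Ccr4 at 11.005 ± 4.18, neighbours whose SDs overlap. Cxcr6 at 2.22 ± 0.639, Ccr2 at 0.368 ± 0.0416 and Cx3cr1 at 0.161 ± 0.123 were far lower. The experiments were scaled apart, so their levels stand side by side without a test.

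The chimera comparison set knockout Treg cells, which share a mouse with unaffected ones, against control Treg cells. In it Ccr2 rose and Ccr6 and Cxcr6 fell in knockout Treg cells. All Treg cells of the controls carried Cre, on both X chromosomes. Loss of Uhrf1, the shared mouse and the dose of Foxp3-driven Cre therefore cannot be told apart here. Of the 7 members with enough counts to be tested, 1 rose and 2 fell at an adjusted p under 0.05 in edgeR's quasi-likelihood test, which is what "called" means here. For comparison, 2.41% of the 9569 genes tested were called, 0.857% higher and 1.56% lower. The median log2 fold change was -0.74 over the 7 members and 0.00085 over all genes.
Ccr2 was at 2.61, 2.83, 2.21 and 2.31 CPM in the 4 controls and at 12.8, 5.11, 18.5 and 22.9 CPM in the 4 knockouts, the last being the library labelled knockout 4. Every knockout lay above every control. Its log2 fold change was 2.52 ± 0.41 (SE, edgeR adjusted p = 0.00034). It was 2.23 without the library labelled knockout 4 (adjusted p = 0.00401) and 2.54 without the library labelled control 1 (adjusted p = 0.00146). With controls 3 and 4 left out it was 2.41 (adjusted p = 0.027).
Cxcr6, the Cxcl16 receptor, was at 4.01, 4.06, 6.01 and 3.08 CPM in controls, from 74 counts, and had no count in knockouts 1 to 3. The library labelled knockout 4 held 5 counts, or 1.49 CPM, which is still below every control. For Cxcr6 the fitted log2 fold change was -3.44 ± 0.83 (edgeR adjusted p = 0.0209), a fitted value at the low end of detection. The call was lost without controls 3 and 4 (adjusted p = 0.151), and in 6 of the 8 fits that left out 1 library. These were control 1 (0.0637), control 2 (0.0583), control 3 (0.0874), knockout 1 (0.0933), knockout 2 (0.103) and knockout 3 (0.0593). Without the library labelled knockout 4, whose Uhrf1 was at the control level, the knockouts held no count and Cxcr6 was called (fitted log2 -7.12, which is no bound, adjusted p = 0.00168).
Ccr6, the Ccl20 receptor, was at 30.1, 22.1, 32.6 and 33.1 CPM in controls and 17.8, 13.8, 15.6 and 22.9 CPM in knockouts. The groups overlap only in the library labelled knockout 4, which was above control 2. Its log2 fold change was -0.74 ± 0.20 (edgeR adjusted p = 0.0387). DESeq2 gave an adjusted p of 0.067, and leaving out controls 3 and 4 gave -0.57 (adjusted p = 0.401), so the call was lost in each. It was also lost without control 1 (0.104), control 3 (0.125), control 4 (0.13), knockout 1 (0.0906), knockout 2 (0.17) or knockout 3 (0.0954).
Of these 3 calls, then, that of Ccr2 alone held in all 8 fits leaving out 1 library. Cxcr6 met the count filter only through the controls and Ccr2 mainly through the knockouts, in each case the group where it was high. Those calls are therefore not independent of that selection. The part of the B cell and G2/M counts of controls 3 and 4 in the fall of Ccr6 and Cxcr6 was not tested beyond leaving those libraries out. Among all genes, 8.13% had chimera groups that did not overlap, as 2 of the 7 members did.

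**Figure D1:**
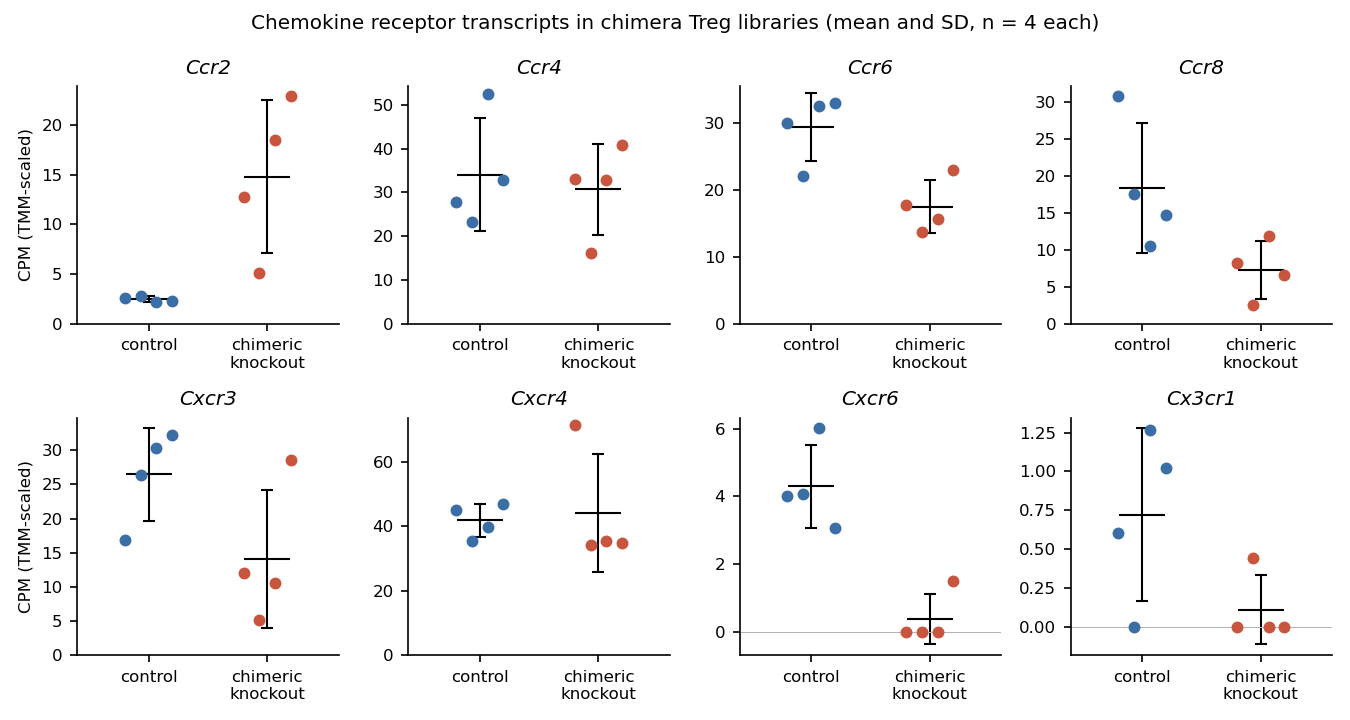
Normalised counts of each receptor (CPM, linear axis) in the chimera experiment, 1 point per library, with controls in blue, chimeric knockouts in red, and a black bar and whiskers for mean and SD (n = 4). Ccr2 points of the knockouts, from 5.11 to 22.9 CPM, all lie above the controls, while Cxcr6 is at 0 in 3 of 4 knockouts.

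The remaining chimera values did not pass the test. Ccr8, a marker of tissue Treg cells, was at 30.7, 17.5, 10.4 and 14.6 CPM in controls and 8.24, 2.44, 11.8 and 6.55 CPM in knockouts (log2 fold change -1.41 ± 0.40, edgeR adjusted p = 0.0878). Knockout 3 alone lay above a control. Without controls 3 and 4 the value was -1.79 (adjusted p = 0.0437), and with no filter on low counts it was called too (adjusted p = 0.000106). Cxcr3 was at 16.9, 26.3, 30.4 and 32.3 CPM in controls and at 12.0, 5.11 and 10.5 CPM in knockouts 1 to 3. The library labelled knockout 4, the one with Uhrf1 at the control level, stood at 28.6 CPM, inside the control range. With it the log2 fold change of Cxcr3 was -0.92 ± 0.48 (adjusted p = 0.476), and without it -1.55 (adjusted p = 0.0011). Cxcr3 was also called with no filter on low counts (adjusted p = 0.0219). Ccr4 averaged 34.0 ± 12.9 CPM in controls and 30.7 ± 10.4 in knockouts (SD, n = 4), and Cxcr4 41.8 ± 5.25 and 44.0 ± 18.3. Cx3cr1 gave 11 counts in controls and 2 in knockouts and was not tested.

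The pulse-chase was designed to delete Uhrf1 in mature Treg cells, and the genotype comparison asks how receptors differ in cells that stayed Treg cells, in those that lost Foxp3, and in the unlabeled Treg cells present afterwards. Neither labeled nor ex-Foxp3 cells had a called member: 0 of 8 in each, against 0.0101% and 0.181% of the 9921 genes tested. By DESeq2 the count was 0 in each as well, and 3 and 4 members had an unadjusted edgeR p under 0.05. In post-tamoxifen cells 1 member, Ccr4, rose, where 7.23% of all genes were called (3.90% higher and 3.33% lower). Groups that do not overlap occurred for 3.1% of genes there and for 0 members. Median log2 fold changes over the members were 0.61, 0.65 and 0.84 in the labeled, ex-Foxp3 and post-tamoxifen comparisons, and 0.0029, 0.0050 and 0.0083 over all genes.

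**Figure D2:**
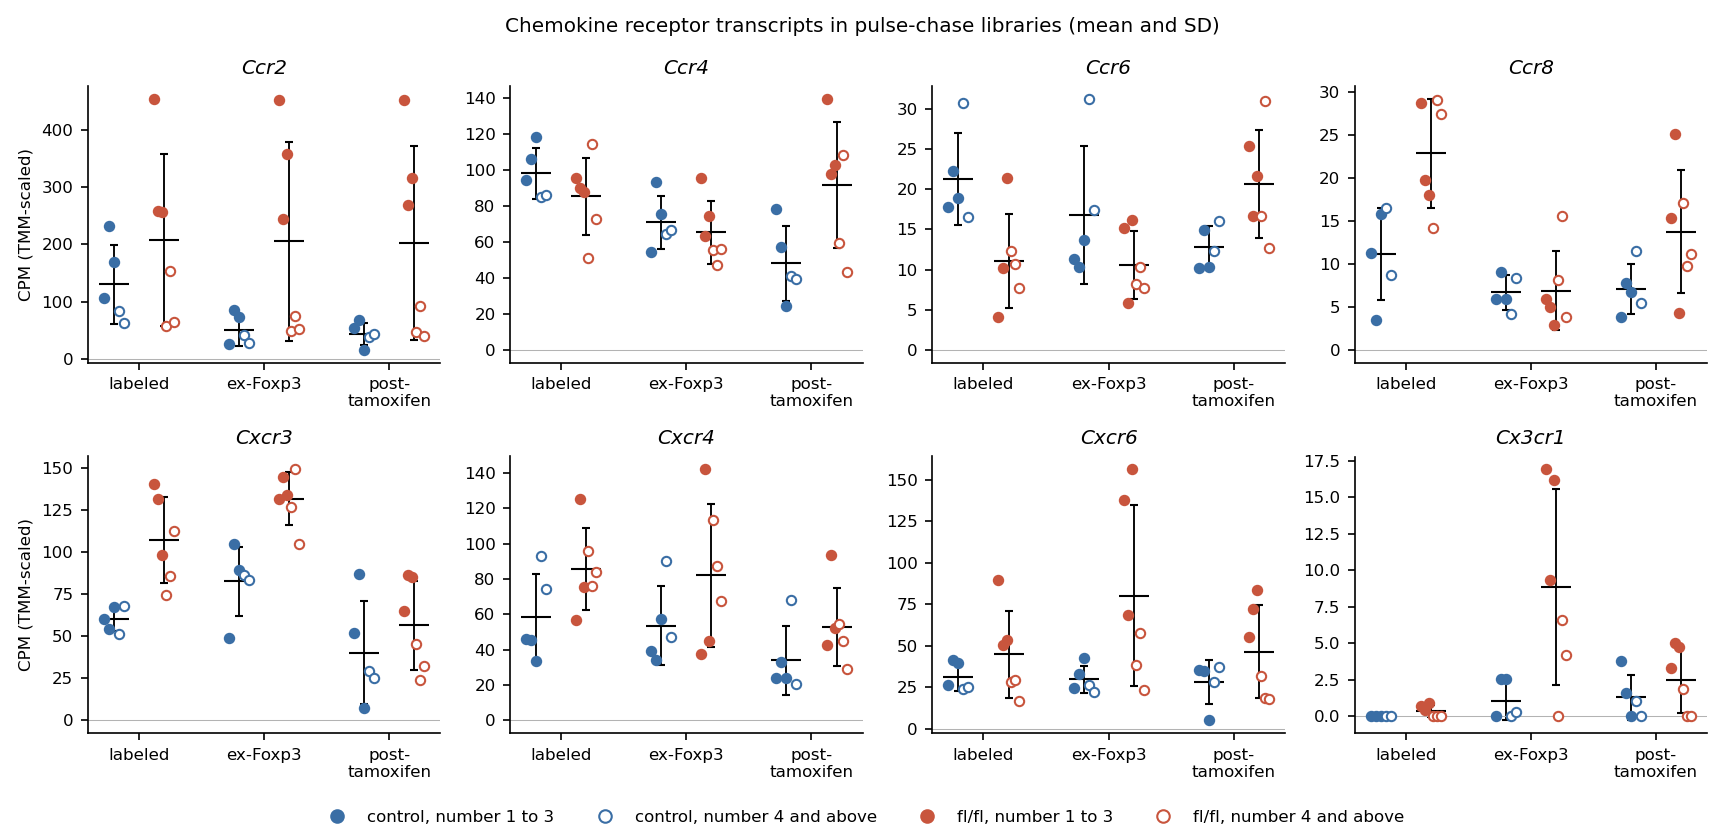
Normalised counts of each receptor (CPM, linear axis) in the pulse-chase by sorted population, 1 point per library, with controls (n = 5) in blue and fl/fl (n = 6) in red, filled for libraries numbered 1 to 3 and open for the others, and a black bar and whiskers for mean and SD. The filled red points of Ccr2 stand at 244 to 455 CPM in all 3 populations, and the open red points at 39.0 to 153 CPM.

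Within the fl/fl group, Ccr2 differed more between library numbers than between populations. Labeled Treg libraries 1 to 6 of the fl/fl mice held 455, 258, 257, 56.8, 153 and 63.9 CPM, with a median of 205, against 106, 231, 169, 83.1 and 61.9 CPM in controls 1 to 5. Ex-Foxp3 cells held 452, 244, 358, 48.6, 74.3 and 52.6 CPM in fl/fl and 25.2, 85.9, 73.7, 41.2 and 27.1 CPM in controls. Post-tamoxifen cells held 452, 268, 316, 47.5, 92.0 and 39.0 CPM in fl/fl and 54.5, 68.0, 15.5, 37.6 and 42.6 CPM in controls. In each population the libraries numbered 1 to 3 of the fl/fl mice were the 3 highest of that population, and those numbered 4 to 6 overlapped the controls.
Over all libraries the Ccr2 log2 fold change of fl/fl over control was 0.65 ± 0.65 in labeled (edgeR adjusted p = 0.823), 2.04 ± 0.71 in ex-Foxp3 (adjusted p = 0.271) and 2.23 ± 0.73 in post-tamoxifen cells (adjusted p = 0.0574). The means of fl/fl libraries 1 to 3 were 323, 351 and 345 CPM in labeled, ex-Foxp3 and post-tamoxifen cells, and those of libraries 4 to 6 were 91.2, 58.5 and 59.5 CPM. Control libraries 1 to 3 also had the higher means, at 169, 61.6 and 46.0 CPM in the same order. Those of control libraries 4 and 5 were 72.5, 34.1 and 40.1 CPM. This split was chosen after seeing these values, so no test of Ccr2 within it is given. DESeq2 called the post-tamoxifen difference (adjusted p = 0.0113), as did edgeR without post-tamoxifen fl/fl 4 (0.0296), fl/fl 5 (0.0496) or fl/fl 6 (0.0267).
The fl/fl libraries numbered 1 to 3 held 26.9 to 92.2 CPM of NK markers. The other fl/fl libraries held 8.22 to 28.6 CPM and control libraries at most 19.6. These counts came mostly from Nkg7, a granule gene also used by activated T cells. In fl/fl, Nkg7 was at 12.8 to 56.6 CPM in ex-Foxp3, 13.5 to 87.9 in post-tamoxifen and 7.44 to 46.9 in labeled libraries. Ncr1, which defines NK cells, was at 0 in 7 of the 8 groups and was found in 1 labeled fl/fl library at 0.783 CPM. In labeled cells G2/M counts were 2330 to 3856 CPM in fl/fl numbers 1 to 3 against 315 to 412 in fl/fl numbers 4 to 6. Labeled controls held 1105 to 1832 CPM in numbers 1 to 3, and 295.5 and 294.7 in numbers 4 and 5. Myeloid markers, whose cells also carry Ccr2, were at 55.8 to 77.8 CPM in labeled fl/fl numbers 1 to 3, 44.6 to 57.2 CPM in numbers 4 to 6 and 61.5 to 69.6 CPM in labeled controls. In post-tamoxifen cells they were at 261 to 750 CPM in fl/fl numbers 1 to 3, 96.9 to 182 CPM in numbers 4 to 6 and 56.1 to 568 CPM in controls. The part of these markers in the Ccr2 levels was not tested. In bulk libraries such as these, more cells with a transcript and more transcript per cell cannot be told apart.

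By group mean, Cxcr6 and Cx3cr1 were highest in ex-Foxp3 cells of fl/fl mice. Cxcr6 stood there at 137, 68.3, 156, 38.2, 57.9 and 23.4 CPM, against 24.7, 32.95, 42.6, 26.6 and 22.1 CPM in control ex-Foxp3 cells. Libraries 1, 2, 3 and 5 were above every control. Genotypes differed by a log2 fold change of 1.43 ± 0.49 (edgeR adjusted p = 0.268). In labeled cells Cxcr6 averaged 44.8 ± 26.1 CPM in fl/fl (SD, n = 6) and 31.4 ± 8.40 in controls (n = 5), and in post-tamoxifen cells 46.6 ± 28.1 and 28.1 ± 13.3.
Cx3cr1 was a sparse transcript. Control labeled Treg cells held 0 counts in 5 libraries, where a floor of 3 counts over the group is 0.267 CPM. Control ex-Foxp3 and control post-tamoxifen cells held 11 counts each (exact Poisson interval 5.49 to 19.7, counting error only), labeled fl/fl cells 4 and post-tamoxifen fl/fl cells 33. Ex-Foxp3 fl/fl cells held 125 counts (104 to 149), or 8.46 CPM over the group. By library this was 16.9, 9.32, 16.2, 0, 6.57 and 4.22 CPM, with library 4 at 0. The group value is 31.6-fold the floor of control labeled cells, which differ in genotype and in population. That ratio is no bound, because the exact Poisson interval of 0 counts reaches 3.69 counts and libraries vary besides. Against control ex-Foxp3 cells the log2 fold change was 3.02 ± 0.96 (edgeR adjusted p = 0.2).
Ex-Foxp3 libraries of fl/fl mice held 58.5 to 64.5 CPM of myeloid markers in numbers 1 to 5 and 48.4 in number 6. Control ex-Foxp3 libraries held 33.5 to 64.2 CPM. Cst3 and Ms4a6c were the highest of these markers, and their ranges overlapped between genotypes. Lyz2 was at 1.93 to 9.57 CPM in fl/fl and 0 to 1.16 CPM in control ex-Foxp3 libraries. The ranges of Csf1r (0.387 to 6.68 and 0 to 4.58 CPM) and Cd68 (0.78 to 4.3 and 2.33 to 5.03 CPM) overlapped. Klrk1, the receptor NKG2D of cytotoxic lymphocytes, reached 18.3 CPM in ex-Foxp3 fl/fl cells and at most 1.05 CPM in control ex-Foxp3 cells. In post-tamoxifen cells Klrk1 reached 15.8 CPM in fl/fl and 6.08 in controls. Of the same NK marker list, Ncr1, Klra4, Klra7 and Klra8 had no count in ex-Foxp3 cells. Klrb1c reached 5.82 and Klre1 3.33 CPM in ex-Foxp3 fl/fl cells. The part of other cell types in these values was not tested.

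Cxcr3, the Th1-associated receptor, was higher in fl/fl than in control libraries of both tdTomato-labeled populations without any overlap. Labeled Treg cells held 60.4, 54.4, 67.2, 51.6 and 68.0 CPM in controls and 141, 132, 98.2, 74.8, 86.1 and 113 CPM in fl/fl. Ex-Foxp3 cells held 48.8, 104.7, 89.5, 86.5 and 83.8 CPM in controls and 132, 145, 134, 127, 149 and 105.2 CPM in fl/fl, where the nearest libraries were 104.7 and 105.2. Groups that do not overlap occurred for 1.45% of all genes in the labeled and 2.22% in the ex-Foxp3 comparison. The log2 fold changes were 0.84 ± 0.35 (edgeR adjusted p = 0.459) and 0.68 ± 0.33 (adjusted p = 0.569), and so neither was called when the 6 groups shared an estimate of spread. Fitted on the 2 groups compared, with a spread of their own, both were called at the same size (0.85, adjusted p = 0.0103, and 0.68, adjusted p = 0.0154). Post-tamoxifen cells varied more, at 52.0, 87.2, 7.14, 29.6 and 25.2 CPM in controls and 65.3, 86.2, 85.5, 45.7, 23.9 and 32.4 CPM in fl/fl (log2 0.53 ± 0.36, adjusted p = 0.397). Without the post-tamoxifen library of control 2, which is one of the pair with little Foxp3, that value was 1.19 (adjusted p = 0.0334).

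Of Ccr4 and Ccr8, receptors of tissue Treg cells, Ccr4 rose in post-tamoxifen fl/fl cells and Ccr8 passed no genotype test. Ccr4 in post-tamoxifen cells was at 78.6, 57.6, 24.2, 41.2 and 39.4 CPM in controls and 140, 97.8, 103, 59.5, 109 and 43.2 CPM in fl/fl. The libraries of fl/fl 1, 2, 3 and 5 exceeded every control, and those of fl/fl 4 and 6 did not. This was a log2 fold change of 0.98 ± 0.26 (edgeR adjusted p = 0.0205), beside B cell marker counts of 167 to 554 CPM in post-tamoxifen fl/fl numbers 1 to 3, against 10.2 to 11.3 CPM in numbers 4 to 6 and 2.54 to 69.1 CPM in controls, whose part in it was not tested. The call was lost in the fit of the 2 groups alone (adjusted p = 0.145), with numbers 4 and above only (0.297) and without control numbers 2 and 3 (0.104). Leaving out post-tamoxifen control 3 (0.0753), control 4 (0.0592), control 5 (0.0626) or fl/fl 1 (0.0602) lost it too. In labeled and ex-Foxp3 cells Ccr4 averaged 98.3 ± 14.1 and 71.1 ± 14.7 CPM in controls (SD, n = 5) and 85.5 ± 21.6 and 65.4 ± 17.4 CPM in fl/fl (n = 6).
Ccr8 in labeled Treg cells of fl/fl mice was at 28.8, 19.8, 18.1, 14.2, 29.1 and 27.5 CPM, and in controls at 11.3, 3.45, 15.8, 16.5 and 8.72 CPM. Library 4 alone of the fl/fl overlapped the controls. With a log2 fold change of 1.03 ± 0.38 it was not called (edgeR adjusted p = 0.345). Post-tamoxifen cells gave 0.91 ± 0.39 (adjusted p = 0.145), and in ex-Foxp3 cells the means were 6.70 ± 2.01 CPM in controls (SD, n = 5) and 6.91 ± 4.64 in fl/fl (n = 6).

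Ccr6 gave genotype estimates of opposite sign in labeled and post-tamoxifen Treg cells, and neither passed the test. Labeled cells held 17.7, 22.2, 18.9, 30.8 and 16.6 CPM in controls and 4.11, 10.1, 21.4, 12.3, 10.7 and 7.75 CPM in fl/fl, where all but library 3 were below every control. The log2 fold change was -0.94 ± 0.31 (edgeR adjusted p = 0.268). Post-tamoxifen cells held 10.1, 15.0, 10.3, 12.3 and 16.0 CPM in controls and 25.3, 16.6, 21.7, 16.6, 31.0 and 12.7 CPM in fl/fl, where 5 of 6 exceeded every control (0.65 ± 0.31, adjusted p = 0.195). Ex-Foxp3 cells gave -0.68 ± 0.31 (adjusted p = 0.492), a value of 0.057 with numbers 1 to 3 alone. The difference between the labeled and the post-tamoxifen genotype effects was -1.59 ± 0.44 on the log2 scale (edgeR adjusted p = 0.507). Going from post-tamoxifen to labeled cells of the same number, Ccr6 was higher in 5 of 5 controls and lower in 6 of 6 fl/fl. The change was close to none in control 5 and in fl/fl 3, and the controls did not show pairing by number in every pair. By p-value Ccr4 came next among the members (-1.17 ± 0.36, adjusted p = 0.513), higher in labeled cells of 5 of 5 controls and of 2 of 6 fl/fl. Of the 8 members 0 were called in this interaction, where 0.0202% of genes were, and 0 in the interaction of genotype with the loss of Foxp3, where 0% of genes were called. DESeq2 called 0 members in each, and 2 and 0 members had an unadjusted edgeR p under 0.05.

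**Figure D3:**
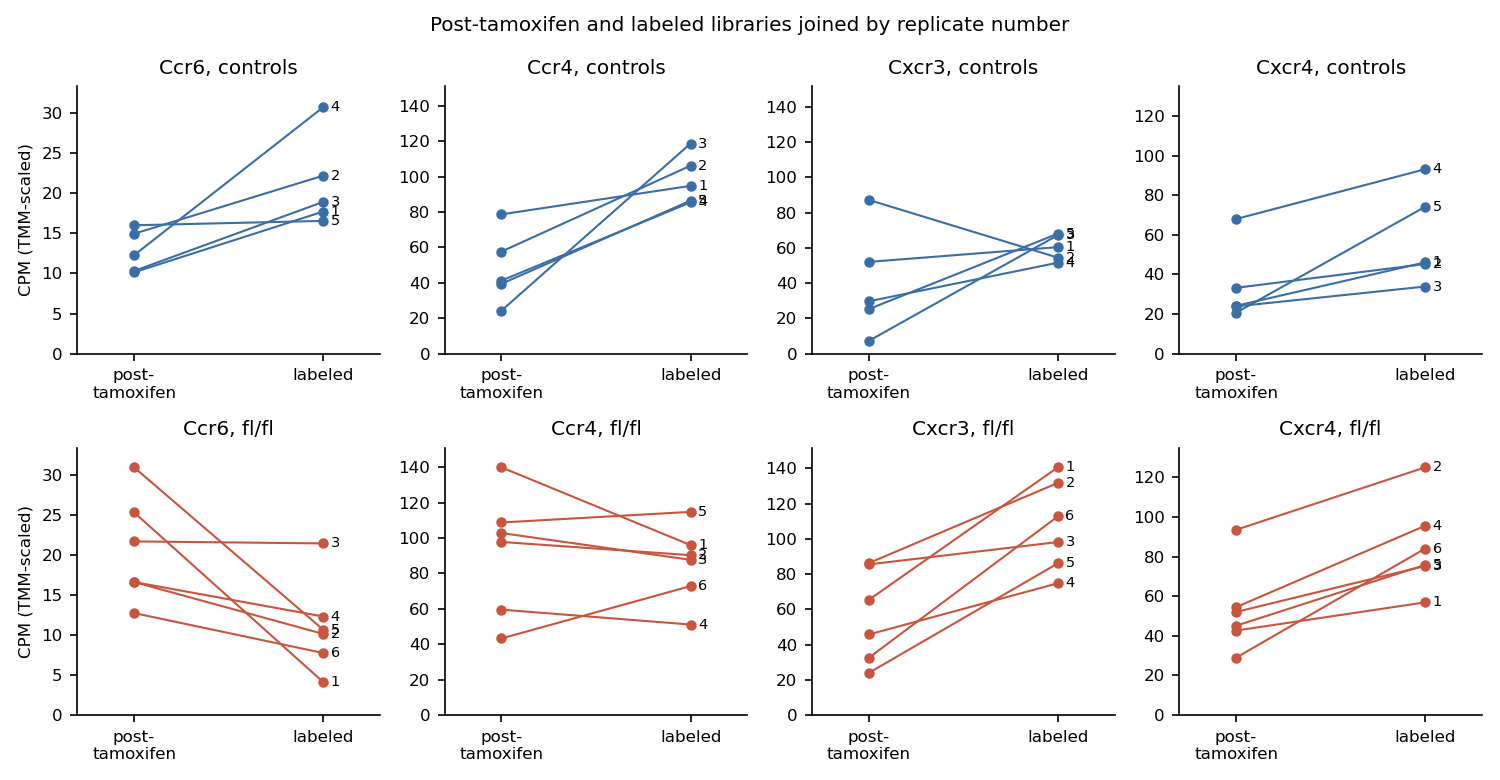
Normalised counts (CPM, linear axis) of Ccr6, Ccr4, Cxcr3 and Cxcr4 in post-tamoxifen and labeled libraries, each line joining the 2 libraries with the same replicate number, printed at its end, with controls above (blue, n = 5) and fl/fl below (red, n = 6). The Ccr6 lines go up in 5 of 5 controls and down in 6 of 6 fl/fl, whereas the Cxcr4 lines go up in all 11.

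Cxcr4 did not separate the genotypes. Its fl/fl over control log2 fold changes were 0.56 ± 0.36 in labeled (edgeR adjusted p = 0.679), 0.62 ± 0.36 in ex-Foxp3 (adjusted p = 0.673) and 0.61 ± 0.38 in post-tamoxifen cells (adjusted p = 0.34). Labeled cells held 46.0, 45.2, 33.8, 93.1 and 74.1 CPM in controls and 56.9, 125, 75.3, 95.6, 75.8 and 84.1 CPM in fl/fl, and the ranges overlapped in all 3 populations.

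Ex-Foxp3 and labeled cells were compared within each genotype to see which receptors go with the loss of Foxp3. In controls 0 of 8 members were called with edgeR or DESeq2 (1 at an unadjusted edgeR p under 0.05), against 0.353% of all genes (0.192% higher). Groups that do not overlap occurred for 3.11% of genes and 0 members in controls, and for 2.85% of genes and 0 members in fl/fl. In fl/fl Cx3cr1 rose and Ccr8 fell, 2 of 8 members, against 4.09% of all genes (2.06% higher and 2.04% lower). Ccr8 was at 28.8, 19.8, 18.1, 14.2, 29.1 and 27.5 CPM in labeled and 5.92, 5.05, 2.86, 8.16, 15.6 and 3.84 CPM in ex-Foxp3 libraries 1 to 6 of the fl/fl mice. It was lower in ex-Foxp3 cells of 6 of 6 numbers, and the groups overlapped in number 5 only. The log2 fold change was -1.73 ± 0.37 (edgeR adjusted p = 0.00314), and -0.74 ± 0.41 in controls (adjusted p = 0.59), with the difference between genotypes at -0.99 ± 0.55 (adjusted p = 1). Cx3cr1 went from 4 counts in labeled to 125 in ex-Foxp3 fl/fl cells (log2 4.48 ± 1.05, edgeR adjusted p = 0.00939). Both calls were lost with numbers 4 and above only (adjusted p = 0.0646 for Ccr8 and 0.164 for Cx3cr1). In the fit of the groups compared alone Ccr8 was called, and Cx3cr1 was not tested, having too few counts for the filter. In the fit of all pulse-chase libraries Cx3cr1 met the filter mostly through ex-Foxp3 fl/fl cells, the group where it was high. Its call there is therefore not independent of that selection.
Ccr2 in controls was lower in ex-Foxp3 than in labeled cells of 5 of 5 numbers. The log2 fold change was -1.41 ± 0.73 without pairing (edgeR adjusted p = 0.558) and -1.36 ± 0.29 with the replicate number as a block (adjusted p = 0.0165). In fl/fl mice Ccr2 was about as high in ex-Foxp3 (205 ± 174 CPM, SD, n = 6) as in labeled cells (207 ± 150), with a difference between genotypes of 1.39 ± 0.95 (adjusted p = 1).

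Labeled and post-tamoxifen Treg cells were compared next, the labeled ones having expressed Foxp3 since the time of tamoxifen. In controls Ccr4 rose in labeled cells, 1 of 8 members, against 7.93% of all genes (3.98% higher and 3.95% lower). Its levels were 94.7, 106, 119, 85.4 and 86.4 CPM in labeled and 78.6, 57.6, 24.2, 41.2 and 39.4 CPM in post-tamoxifen cells, with no overlap, which held for 5.66% of genes and for 2 members, Ccr4 and Ccr6. Its log2 fold change was 1.09 ± 0.27 (edgeR adjusted p = 0.00956). It was kept in each of the 10 fits that left out 1 library, and lost without control numbers 2 and 3 (0.83, adjusted p = 0.201), with numbers 1 to 3 only (1.09, adjusted p = 0.0698) and with numbers 4 and above only (1.10, adjusted p = 0.0601). Ccr6 gave 0.73 ± 0.32 (adjusted p = 0.186). Cxcr3 gave 0.59 ± 0.38 (adjusted p = 0.417), and 1.25 without post-tamoxifen control 2 (adjusted p = 0.0234).
In fl/fl 0 of 8 members were called with edgeR or DESeq2, against 4.58% of all genes (1.79% higher and 2.78% lower), and 4 had an unadjusted edgeR p under 0.05. With the replicate number as a block, 2 members were called: Ccr6 fell in labeled cells (-0.89, edgeR adjusted p = 0.029, and -0.86 ± 0.30, adjusted p = 0.0966, without the block) and Cxcr4 rose (0.73, adjusted p = 0.0115, and 0.68 ± 0.34, adjusted p = 0.32). Cxcr4 was higher in the labeled library of 6 of 6 fl/fl and 5 of 5 control numbers. Ccr6 was also called when labeled fl/fl 3 was left out (-1.18, adjusted p = 0.0211). Cxcr3 was higher in labeled cells of 6 of 6 fl/fl numbers, at 0.91 ± 0.33 (adjusted p = 0.121). It was called without the pair of post-tamoxifen libraries low in Foxp3 (1.06, adjusted p = 0.0273), without control numbers 2 and 3 (adjusted p = 0.0261) and with numbers 4 and above only (1.40, adjusted p = 1.56e-06).

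Ex-Foxp3 and post-tamoxifen cells shared their libraries with the comparisons above. In controls 0 of 8 members were called with edgeR or DESeq2 (2 at an unadjusted edgeR p under 0.05), against 5.33% of all genes (2.57% higher and 2.76% lower), and 0 members had groups without overlap, against 3.3% of genes. Cxcr3, at 1.05 ± 0.37 (edgeR adjusted p = 0.113), was called without post-tamoxifen control 2 (1.70, adjusted p = 0.00198) and with numbers 4 and above only (1.63, adjusted p = 2.19e-06). In fl/fl 2 of 8 members were called, against 15.2% of all genes (5.80% higher and 9.39% lower). Cxcr3 rose in ex-Foxp3 cells by 1.20 ± 0.33 (edgeR adjusted p = 0.0129), with 105.2 to 149 CPM against 23.9 to 86.2 CPM and no overlap, as for 5.48% of genes. This call was lost with numbers 1 to 3 only (0.78, adjusted p = 0.404). Ccr6 fell by 0.95 ± 0.30 (adjusted p = 0.0272), from 12.7 to 31.0 CPM in post-tamoxifen to 5.82 to 16.2 CPM in ex-Foxp3 cells. That call was lost with numbers 1 to 3 only (adjusted p = 0.256) and without post-tamoxifen fl/fl 1 (0.0557), post-tamoxifen fl/fl 5 (0.0668), ex-Foxp3 fl/fl 2 (0.0674), ex-Foxp3 fl/fl 4 (0.0583) or ex-Foxp3 fl/fl 6 (0.0613). The replicate block added Ccr8 (-1.06, adjusted p = 0.0296, against -1.0 ± 0.37, adjusted p = 0.0602, without it) and Cxcr4 (0.60, adjusted p = 0.0184, against 0.63 ± 0.34, adjusted p = 0.23). Ccr8 was also called without post-tamoxifen fl/fl 3 (-1.19, adjusted p = 0.0233) or ex-Foxp3 fl/fl 5 (-1.41, adjusted p = 0.00961), and Ccr4 without post-tamoxifen fl/fl 6 (-0.64, adjusted p = 0.0474).
Beside every comparison with post-tamoxifen cells stand their myeloid counts. In controls 7 of the 11 myeloid genes tested fell in labeled and in ex-Foxp3 relative to post-tamoxifen cells, and in fl/fl 8 and 10 did. Csf1r, a macrophage marker, reached 308 CPM in post-tamoxifen libraries and at most 15.7 in labeled or ex-Foxp3 libraries. G2/M genes differed as well: 11 of 15 fell in ex-Foxp3 relative to post-tamoxifen fl/fl cells, with a median log2 fold change of -2.45. In controls 0 of 15 were called relative to post-tamoxifen cells, and in labeled fl/fl cells 0. The part of myeloid cells and of dividing cells in the receptor differences was not tested.

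**Figure D4:**
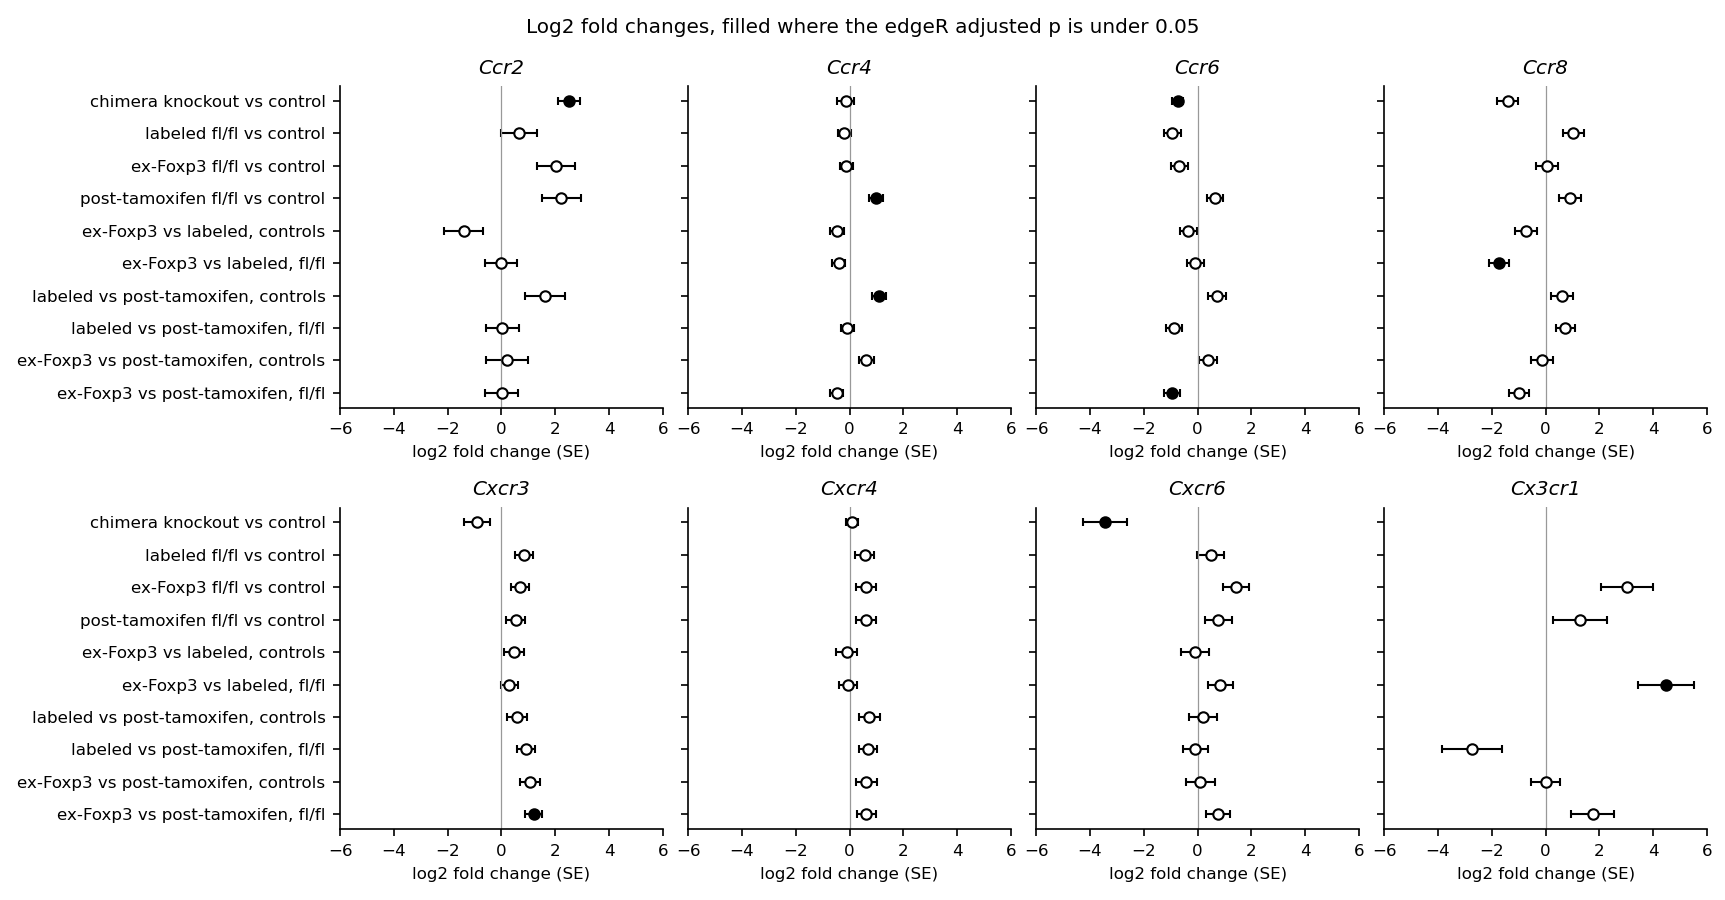
Log2 fold changes (x axis) with SE bars for each receptor in the chimera comparison and the 9 pulse-chase comparisons (y axis), positive where the group named first is higher, filled where the edgeR adjusted p is under 0.05. Cx3cr1 is left out where it was not tested or where control labeled cells, at 0 counts, are one side, and the filled points are Ccr2, Ccr6 and Cxcr6 in the chimera, Ccr4 and Ccr8 in 2 and 1, Cx3cr1 in 1, and Ccr6 and Cxcr3 in the last comparison.

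Across the 33 pulse-chase libraries 5 members, Ccr2, Ccr4, Cxcr3, Cxcr6 and Cx3cr1, correlated positively with one another (r from 0.131 to 0.812), given here as a description because the libraries share groups, depth range and sorting. Ccr2 and Cxcr6 had the highest correlation of log2 CPM (Pearson r = 0.812, and 0.859 for deviations from group means), and Ccr2 and Ccr4 the next (0.743). Cxcr6 and Cx3cr1 had r = 0.704 and Cxcr3 and Cxcr6 0.685. Ccr6 had r between -0.289 with Cxcr3 and 0.321 with Ccr4, and Ccr8 between -0.297 with Cx3cr1 and 0.348 with Cxcr4. Cxcr4 also correlated positively with each of the 5 members named first, from 0.03 with Cx3cr1 to 0.558 with Cxcr3, its highest r. The 3 genes closest to Ccr2 were S100a6 (r = 0.929), Lgals1 (0.928) and S100a4 (0.912). Cxcr6 was closest to Id2 (0.882), which was also closest to Cx3cr1 (0.79). Cxcr3 went with Myo1f (0.907), Atp2b4 (0.906) and Ahnak (0.903), and Ccr4 with Lcp1 (0.824). Ccr8 went with Kdm2b (0.762) and with the Treg genes Ctla4 (0.74) and Tnfrsf18 (0.732). Cxcr4 went with Tnfaip3 (0.813), Pdcd1 (0.793) and Zfp36l2 (0.76), and Ccr6, with the weakest neighbours, with Trappc5 (0.601).

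Other genes of the pathway were read from fixed lists. Of the 14 other chemokine receptors in the table, 4 had enough counts in the chimera and 7 in the pulse-chase. In the chimera 1 of 4 was called: Cxcr5, the follicle-homing receptor, fell (-0.62 ± 0.14, edgeR adjusted p = 0.0152), and the median of the 4 was -0.19. In the 3 genotype comparisons of the pulse-chase edgeR called 0 of 7, with 3, 3 and 2 at an unadjusted p under 0.05 in labeled, ex-Foxp3 and post-tamoxifen cells. Ccr7, the lymph node receptor of naive cells, was at 86.4 to 131 CPM in control and 28.1 to 60.8 CPM in fl/fl labeled cells, with no overlap (-1.21 ± 0.26, adjusted p = 0.0617). In ex-Foxp3 cells it was at 100.1 to 237 and 56.7 to 83.5 CPM, again without overlap (-1.07 ± 0.24, adjusted p = 0.0605). Ccr7 fell in labeled relative to post-tamoxifen cells of both genotypes (-0.85, adjusted p = 0.0331 in controls, and -1.51, adjusted p = 0.000911 in fl/fl). Ccr9, a gut-homing receptor, fell there in fl/fl (-3.26, adjusted p = 0.00299). Relative to post-tamoxifen cells, ex-Foxp3 cells had lower Ccr3 and Ccr9 and higher Cxcr5 in both genotypes, 3 of 7 in controls, and lower Ccr7 besides in fl/fl, 4 of 7.
Ligand genes were mostly silent: 3 of 33 in the chimera and 4 of 33 in the pulse-chase passed the count filter, namely Ccl1, Ccl5, Ccl25 and Cxcl10 in the latter. Ccl1, the ligand of Ccr8, rose in post-tamoxifen fl/fl cells, the 1 ligand called between genotypes, from 0 to 1.63 CPM in controls to 0 to 39.8 CPM in fl/fl (4.83 ± 1.19, edgeR adjusted p = 0.0114, a fitted value, from 5 counts in controls and 173 in fl/fl). Relative to post-tamoxifen cells, Cxcl10, a ligand of Cxcr3, rose (1.80 ± 0.53, adjusted p = 0.0181) and Ccl1 fell (-2.74 ± 0.90, adjusted p = 0.036) in ex-Foxp3 fl/fl cells.
Of the 17 Gi-signalling genes tested, 1 fell in the chimera (Gng2, -0.56 ± 0.15, edgeR adjusted p = 0.0354), edgeR called 0 in the labeled and ex-Foxp3 genotype comparisons (3 and 1 at an unadjusted p under 0.05), and 2 rose in post-tamoxifen fl/fl cells (Gnb2, 0.44, adjusted p = 0.00663, and Gng2, 0.62, adjusted p = 0.041). Among genes that end receptor signals, Rgs16 fell in chimeric knockouts (-1.45 ± 0.25, adjusted p = 0.0013), 1 of 12. Rgs1 fell in ex-Foxp3 relative to labeled fl/fl cells (-1.16 ± 0.22, adjusted p = 0.00208), 1 of 13. Arrb1, an arrestin, fell in post-tamoxifen fl/fl cells (-0.48 ± 0.13, adjusted p = 0.0173), 1 of 13.
Of 7 genes of naive homing, 2 rose in chimeric knockouts, S1pr1 (0.49 ± 0.09, edgeR adjusted p = 0.00297) and Klf2 (0.40 ± 0.10, adjusted p = 0.0498), with a median of 0.06 over the 7. S1pr1 encodes the receptor for exit from lymph nodes, and Klf2 a factor that maintains it. Between pulse-chase genotypes edgeR called 0 of 7, with 1, 1 and 2 at an unadjusted p under 0.05 in labeled, ex-Foxp3 and post-tamoxifen cells. In labeled relative to post-tamoxifen cells 3 of 7 fell in controls (Ccr7, S1pr1 and Klf2) and 1 in fl/fl (Ccr7). In ex-Foxp3 relative to labeled cells 0 of 7 were called in controls (2 at an unadjusted p under 0.05), and 2 rose in fl/fl, Klf2 and Itga4, an integrin subunit. In ex-Foxp3 relative to post-tamoxifen cells 1 rose in controls (Itga4), and in fl/fl 2 rose (Itga4 and Gpr183) and 1 fell (Ccr7).
Of the 18 transcription factors linked to these receptors, 2 rose and 3 fell in chimeric knockouts. Eomes (1.46 ± 0.35, edgeR adjusted p = 0.0304) and Bach2 (0.39 ± 0.08, adjusted p = 0.00483) rose, and Gata3 (-0.46 ± 0.10, adjusted p = 0.0118), Id2 (-1.09 ± 0.24, adjusted p = 0.0165) and Ahr (-0.66 ± 0.17, adjusted p = 0.027) fell. Bach2, which restrains effector genes, fell in ex-Foxp3 (-1.09 ± 0.24, adjusted p = 0.0449) and post-tamoxifen fl/fl cells (-1.03 ± 0.23, adjusted p = 0.00678), the opposite sign to the chimera. In post-tamoxifen fl/fl cells 5 of the 18 rose and 3 fell, with Maf (1.25, adjusted p = 0.0025), Batf (0.75, adjusted p = 0.00567) and Prdm1 (1.35, adjusted p = 0.00665) among those that rose and Lef1 (-0.88, adjusted p = 0.00195) among those that fell.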

How the data were processed

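RNA was sequenced from sorted cells with a stranded total RNA kit, per the labels' protocols. The authors deposited raw read counts per gene for 41 libraries. Per the submitters' processing notes, bcl2fastq 2.17.1.14 and TopHat2 2.1.0 were used with mm10. The annotation, strand setting and counting settings are not given in the sources used here, so overlapping genes may share reads.

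Groups followed the labels. Counts were tested with edgeR 4.0.16 (R 4.3.3), quasi-likelihood, TMM scaling and filterByExpr, in 1 fit for the chimera (9569 genes) and 1 for the 6 pulse-chase groups (9921 genes), each with p-values adjusted by Benjamini-Hochberg across that fit's genes and called under 0.05. Levels are CPM of the TMM-scaled library, and levels per kilobase use the exon union of the GENCODE M21 annotation. Marker sums, Y-linked sums and single marker genes other than Foxp3 are instead CPM of the total count, without TMM scaling. A group without counts was given a floor of 3 counts. The script was tested on simulated counts. Every pair of libraries within a group differed by more than counting noise (chi-square over its degrees of freedom at least 2.57). Libraries of different groups were not compared in this way. Alternatives were DESeq2 1.42.0, RLE scaling, no count filter, a fit of the compared groups alone, a replicate block, leaving out each library, and, added after seeing the data, splits by library number and leaving out doubted libraries. Of the identifiers, 3935 carry another symbol in the reference, and the deposited symbols were used.

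Named genes are all members, the called genes with the 4 smallest p-values of each list and comparison, and the 3 tested genes of a mean log2 CPM of at least 3 most correlated with each member, without predicted, ribosomal and mitochondrial genes. Ccr7 in the genotype comparisons, Eomes in the chimera, Bach2 in post-tamoxifen cells, and Nkg7, Ncr1, Klrk1, the other NK markers and Csf1r were named after their values were seen. 1 gene of the naive homing list is not reported here and was left out of its counts. The members and lists were chosen with earlier results of these data known. Same-numbered libraries deviated together, with every pair's correlation over 0.1, in the comparisons of ex-Foxp3 with labeled cells (0.138 to 0.303 in controls, 0.144 to 0.36 in fl/fl), of labeled with post-tamoxifen fl/fl cells (0.244 to 0.438) and of ex-Foxp3 with post-tamoxifen fl/fl cells (0.127 to 0.393). The pairing there comes from these correlations, not from the labels.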

Additional observations from a re-analysis of the deposited data

Results flagged for a closer look

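Of 63 groups of receptor levels tested for a library far from the rest, 5 were flagged, where chance flags about 5 in 100. Cxcr4 was at 71.5 CPM in chimeric knockout 1, against 34.2 to 35.4 in the other knockouts. Cxcr4 was at 67.9 CPM in post-tamoxifen control 4, against 20.6 to 33.2 in the other controls of that population. Cxcr6 was at 5.16 CPM in post-tamoxifen control 3, against 28.2 to 37.1 in the others. In the library labelled knockout 4 Cxcr6 was at 1.49 CPM, from 5 counts, against 0 in the other knockouts. Cx3cr1 was at 0.444 CPM, from 2 counts, in chimeric knockout 2 and at 0 in the others. In these last 2 groups the other libraries were all at 0, so any count at all would be flagged. The rate of 5 in 100 does not apply to them.

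The genotype effect on Ccr6 differed between labeled and post-tamoxifen Treg cells by -1.59 on the log2 scale (edgeR unadjusted p = 0.000917, adjusted p = 0.507). Every control number went one way and every fl/fl number the other. Labeled and post-tamoxifen values hardly differed in control 5 (16.6 and 16.0 CPM) and fl/fl 3 (21.4 and 21.7 CPM). Same-numbered controls of these populations had correlations of -0.0238 to 0.253, so joining controls by number is not borne out.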

How the results depend on the processing

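Counts of members called are given with counts of all genes called in brackets. In the chimera, 3 (231) became 5 (396) without a count filter, 2 (95) without controls 3 and 4, and 1 to 4 (100 to 352) leaving out 1 library. The labeled genotype count of 0 (1) became 1 (41) in the fit of the groups alone, and genes called were 52 with DESeq2, 71 with numbers 1 to 3, 7 with numbers 4 and above and 0 without control numbers 2 and 3, or 1 to 9 leaving out 1 library. The ex-Foxp3 genotype count of 0 (18) became 1 (137) in the groups alone and 1 (143) with numbers 1 to 3, and genes called were 12 without a filter, 89 with DESeq2, 5 with numbers 4 and above, 5 without control numbers 2 and 3, and 5 to 56 leaving out 1 library. The post-tamoxifen genotype count of 1 (717) became 2 (975) with DESeq2, 0 (147) in the groups alone, 2 (1325) with numbers 1 to 3, 0 (209) with numbers 4 and above, 0 (451) without control numbers 2 and 3, and 0 to 2 (390 to 1147) leaving out 1 library. Ex-Foxp3 against labeled cells gave 0 (35) in controls, with 80 genes by DESeq2, 137 in the groups alone, 4 without control numbers 2 and 3 and 4 to 29 leaving out 1 library. In fl/fl, 2 (406) became 1 (437) in the groups alone, where Cx3cr1 had too few counts to be tested, and 0 (179) with numbers 4 and above, and stayed at 2 (242 to 433) leaving out 1 library. Labeled against post-tamoxifen cells in controls, 1 (787), became 0 (125) with numbers 1 to 3, 0 (506) without control numbers 2 and 3, 2 (1161) without the post-tamoxifen libraries low in Foxp3 and 1 to 2 (491 to 1114) leaving out 1 library, with 493 genes in the groups alone. In fl/fl, 0 (454) became 1 (774) with numbers 4 and above, 1 (551) without control numbers 2 and 3, 1 (525) without the libraries low in Foxp3 and 0 to 1 (318 to 459) leaving out 1 library, with 202 genes in the groups alone and 78 with numbers 1 to 3. Ex-Foxp3 against post-tamoxifen cells in controls, 0 (529), became 1 (694) with numbers 4 and above, 1 (928) without the libraries low in Foxp3 and 0 to 1 (259 to 917) leaving out 1 library, with 297 genes in the groups alone and 0 with numbers 1 to 3. In fl/fl, 2 (1507) became 1 (1092) with numbers 1 to 3 and 1 to 3 leaving out 1 library. The cause of these shifts was not tested. Ccr2 helped to choose the split by number, so its calls with numbers 1 to 3 are no evidence. Ccr6 in the ex-Foxp3 genotype comparison reversed to 0.057 with numbers 1 to 3. Both interactions kept 0 members.

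With the replicate block, paired comparisons gave 1 member (211 genes) in ex-Foxp3 against labeled controls, 2 (893) in fl/fl, 2 (805) in labeled against post-tamoxifen fl/fl and 4 (2063) in ex-Foxp3 against post-tamoxifen fl/fl. Elsewhere libraries share a number only, and the block gave 3 members in the ex-Foxp3 genotype comparison (229 genes), namely Ccr2 (1.97, adjusted p = 0.0215), Cxcr6 (1.49, 0.0338) and Cx3cr1 (3.26, 0.0349). It gave 2 (1650) in the post-tamoxifen genotype comparison, with Ccr2 at 2.05 (adjusted p = 0.00363), 3 (1280) in labeled against post-tamoxifen controls, 1 (878) in ex-Foxp3 against post-tamoxifen controls, and 149 genes but 0 members in the labeled genotype comparison. In the chimera Cxcr6 had an adjusted p of 0.0608 with the block, where the correlations of same-numbered libraries were -0.0887 to 0.0242. Counts of few reads, as of Cx3cr1 and of Cxcr6 in the chimera, limit precision. Both genes met the count filter mostly through the group where they were high.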
